A study of Mus musculus with 3 samples.

Results

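Proteins that enter the secretory pathway fold in the endoplasmic reticulum (ER), and the 10 genes described here encode a core of the machinery that folds them: Hspa5, Hsp90b1, Pdia3, Pdia4, Pdia6, Calr, Dnajb9, Xbp1, Sdf2l1 and Serpinh1. The rule names these 10 genes and uses no measured value, although it was written with earlier results of these data known, and all 10 were found among the 56833 genes of the table. RNA was sequenced from ankle synovium cells of mice of the genotype Efhd1CreER; Ai9, in which a Cre recombinase driven by Efhd1 switches on the tdTomato reporter. Cells sorted for tdTomato spent 24 h on plates coated with collagen whose stiffness was 0.2 kPa in the soft, 8 kPa in the intermediate and 64 kPa in the stiff group, and all 3 groups share the genotype, the sort and the collagen coating. The study asked whether matrix stiffness acts on the differentiation of these cells into fibroblasts. The sort reads a reporter that stays on once switched, so it does not require Efhd1 to be expressed at harvest, and the age and number of the mice were not given in the sources used here.

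Each stiffness level had 1 library. No difference below has a replicate check or a p-value, and an effect of stiffness cannot be told apart from a difference between single cultures. Depth was 25487064 to 28081600 reads. The labels call the cells telocytes. Of 8 telocyte markers examined, Efhd1 was covered by 10, 5 and 3 reads in the soft, intermediate and stiff libraries, Kit by 41, 41 and 44 and Ano1 by 26, 49 and 50. Foxl1 (232, 247 and 181 reads), Cd34 (229, 257 and 310) and Nes (165, 309 and 755) had more, and Pdgfra and Vim, which fibroblasts express too, were abundant. Of 10 fibroblast markers Col1a1, Col1a2 and Pdpn were abundant in every library, while Fap had 152, 172 and 106 reads. Of these 10, 5 had a stiff to soft log2 ratio above 0 and 5 below 0, with Dcn at -0.44, Lum at -0.36 and Fap at -0.52. The names of the groups here follow the plates and not a cell type. All 12 macrophage markers examined had a higher value in the stiff than in the soft library, and their summed level was 29933 normalized read counts on soft, 36883 on intermediate and 64193 on stiff plates. Plasma cells are rich in ER folding proteins. Of 10 plasma and B cell markers 6 had no read in any library, among them Mzb1, Igkc and Cd79a. Jchain had 1 read on soft, 0 on intermediate and 1 on stiff plates, Ighm 2, 0 and 0, and Derl3 22, 20 and 13. Sdc1, which other cells than plasma cells also express, was abundant, with 22978, 24717 and 17345 reads. A count of 0 allows up to 3 reads.

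As background, Hspa5 encodes BiP, the Hsp70-type chaperone that binds unfolded chains in the ER lumen and holds the stress sensors of the organelle inactive. When unfolded protein builds up, the sensors are released and start the unfolded protein response, in which the transcription factors ATF6, XBP1 and ATF4 raise the output of chaperone, degradation and amino acid supply genes. ATF6, with the CCAAT-binding factor NF-Y, acts through the ER stress response element (ERSE), a pair of short motifs held at a fixed distance. In fibroblasts a large part of the load on this system is procollagen, for which Serpinh1 (HSP47) is a dedicated chaperone.

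The promoters of the members were read from RefSeq (GRCm38.p6), because several of these genes are textbook targets of ATF6. The window ran from 250 bases before to 50 bases after the annotated start, and all 10 members had 1. The ERSE was searched on both strands as CCAAT and CCACG with 9 bases of any kind between them. It was found in 4 of the 10 members, Hspa5, Hsp90b1, Pdia6 and Calr. Over all genes with a window it was found in 37 of 27025 (0.137%), and in 39 of all 32851 promoter windows of that length (0.119%). The ERSE is a textbook motif and several members are textbook targets of ATF6, so these matches are no independent finding. The 250 bases upstream of the start are shown for these 4 genes, 5′ to 3′ on the strand of the gene, with each ERSE in capitals; Hsp90b1 holds 2, and the element of Calr and the second of Hsp90b1 lie on the opposite strand. Sdf2l1, whose RNA differed most between the libraries, is shown beside them and has no match in these letters.
Hspa5: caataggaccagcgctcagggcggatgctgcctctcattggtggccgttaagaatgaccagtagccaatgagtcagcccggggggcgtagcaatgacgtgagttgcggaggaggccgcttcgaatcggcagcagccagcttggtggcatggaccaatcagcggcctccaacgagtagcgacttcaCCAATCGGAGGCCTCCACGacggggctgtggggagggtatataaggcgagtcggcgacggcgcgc
Hsp90b1: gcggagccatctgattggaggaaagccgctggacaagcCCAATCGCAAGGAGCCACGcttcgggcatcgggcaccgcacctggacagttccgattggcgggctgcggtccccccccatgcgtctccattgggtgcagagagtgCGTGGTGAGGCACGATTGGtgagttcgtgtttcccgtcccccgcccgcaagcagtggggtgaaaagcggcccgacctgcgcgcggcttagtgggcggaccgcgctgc
Pdia6: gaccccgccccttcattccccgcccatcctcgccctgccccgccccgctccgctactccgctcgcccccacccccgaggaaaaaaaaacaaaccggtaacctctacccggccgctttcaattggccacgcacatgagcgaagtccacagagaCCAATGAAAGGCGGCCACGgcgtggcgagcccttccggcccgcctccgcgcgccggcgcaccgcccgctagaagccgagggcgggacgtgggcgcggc
Calr: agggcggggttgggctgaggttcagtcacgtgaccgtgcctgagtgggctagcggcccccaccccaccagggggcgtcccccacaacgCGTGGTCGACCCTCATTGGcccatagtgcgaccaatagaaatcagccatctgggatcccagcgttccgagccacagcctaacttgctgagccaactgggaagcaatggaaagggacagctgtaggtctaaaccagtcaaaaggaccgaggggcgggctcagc
Sdf2l1: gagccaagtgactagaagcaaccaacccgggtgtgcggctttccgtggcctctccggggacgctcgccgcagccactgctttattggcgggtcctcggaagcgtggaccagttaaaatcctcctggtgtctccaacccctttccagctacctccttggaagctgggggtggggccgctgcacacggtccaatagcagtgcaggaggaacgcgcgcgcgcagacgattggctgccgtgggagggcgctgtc

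These stretches are chr2:34771840-34772089 (plus strand) for Hspa5, chr10:86705445-86705694 (minus) for Hsp90b1, chr12:17266339-17266588 (plus) for Pdia6, chr8:84846932-84847181 (minus) for Calr and chr16:17132384-17132633 (minus) for Sdf2l1. With the start counted as base 0, the ERSE of Hspa5 spans bases -65 to -47 and that of Pdia6 bases -98 to -80. In Hsp90b1 the elements span -212 to -194 and -107 to -89, and in Calr the element spans -162 to -144. The shorter CCAAT box (CCAAT on either strand), which is also the first part of every ERSE, was present in 8 of the 10 members and in 37.4% of all windows. Xbp1 and Serpinh1 had none. Neither the ERSE-II (0.0365% of windows), nor the unfolded protein response element UPRE (0.676%), nor a heat shock element (0.603%), each searched on both strands, was found in a member's window. A match of letters is a description and not a bound site. Variants of these letters and bases outside the window were not searched, so no match does not mean that an element is absent.

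**Figure D1:**
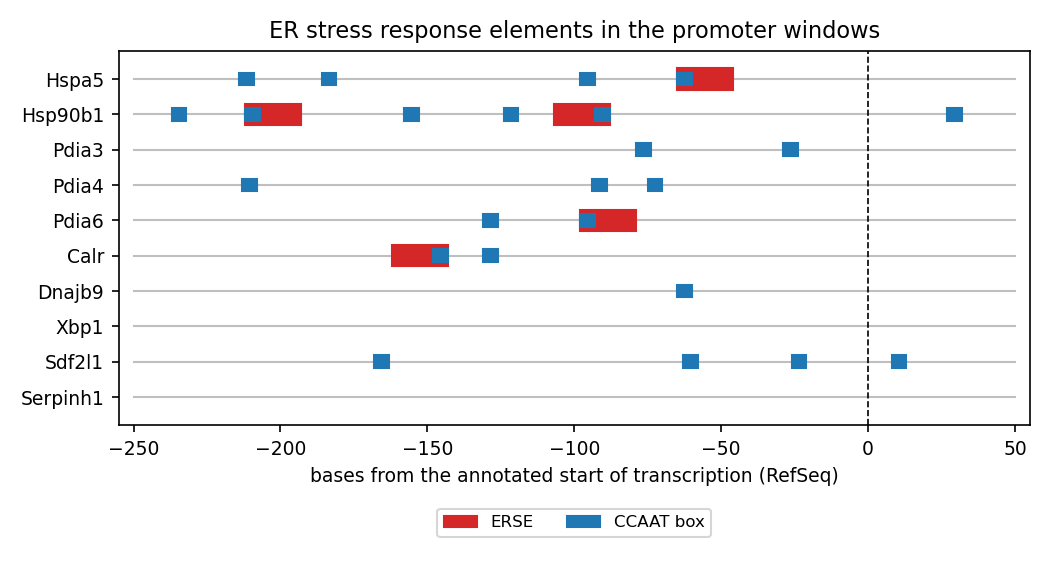
Motif matches in the promoter windows of the 10 ER folding genes, by distance in bases from the RefSeq start (dashed line). Red boxes are ER stress response elements, present in Hspa5, Hsp90b1, Pdia6 and Calr, and blue boxes are CCAAT boxes, present in 8 of the 10.

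The transcripts of the folding machinery were abundant and nearly level over the 3 stiffnesses. Together the 10 genes took 0.688% of the reads of the soft library (exact 95% Clopper-Pearson interval 0.685% to 0.691%), 0.688% of the intermediate (0.684% to 0.691%) and 0.689% of the stiff library (0.686% to 0.692%). These intervals overlap throughout. Like every interval below, they hold the error of counting alone and no difference between cultures. Reads copied by PCR are not separate molecules, so even the counting error can be understated. On the scale of normalized read counts, the reads divided by the size factor of each library, the sum over the members was 179708 on soft, 182003 on intermediate and 187041 on stiff plates. The log2 ratio of the summed level was 0.06 for stiff to soft, with an interval from 0.05 to 0.07. Scaling to total reads instead shifted the median of all genes by -0.055 in this comparison, and the shares of reads above were nearly equal. The ratio of the sum thus rests on the size factors.

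Because levels of different genes compare only per length, reads were also expressed per kilobase of the canonical transcript and scaled to the depth of the library (RPKM). On that scale the order in the soft library was Calr (782 RPKM), Serpinh1 (663), Pdia3 (274), Hsp90b1 (188), Hspa5 (139.7), Pdia6 (134), Xbp1 (79.5), Pdia4 (49.7), Dnajb9 (33.8) and Sdf2l1 (26.5). The order was the same in the intermediate library. In the stiff library Sdf2l1 (35.8 RPKM) stood above Dnajb9 (32.8 RPKM), and the other 8 kept their places. Among 11655 genes with a known length, Calr ranked 70 and Serpinh1 94 by mean RPKM, while Sdf2l1 ranked 2335. With the union of all exons as the length, Calr, Serpinh1 and Pdia3 still led, but several orders below them changed. In the soft library Hsp90b1 (87.1 RPKM) then stood below Hspa5 (125 RPKM), and Xbp1 (22.6 RPKM) below Pdia4 (38.1 RPKM) and Sdf2l1 (26.5 RPKM). On that length Sdf2l1 was above Dnajb9 in all 3 libraries, at 26.5 against 19.96 RPKM on soft, 25.5 against 19.0 on intermediate and 35.8 against 19.4 on stiff plates, so these orders rest on the length chosen.

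**Figure D2:**
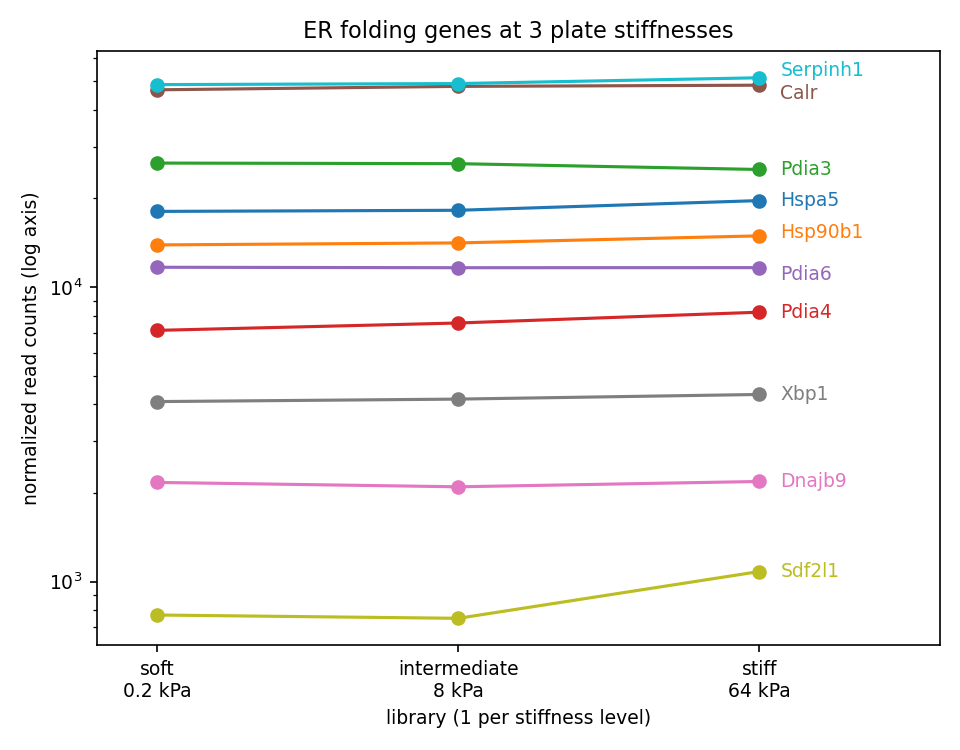
Normalized read counts (log axis) of the 10 ER folding genes in the soft, intermediate and stiff library, 1 point per library. Lines run almost flat from Serpinh1 near the top to Dnajb9, and Sdf2l1 steps up from 751 in the intermediate to 1083 in the stiff library.

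Hspa5 lies on chromosome 2 at 34661982 to 34668880 (GRCm39, plus strand, 8 exons in the canonical transcript). It had 18079 normalized read counts on soft, 18238 on intermediate and 19674 on stiff plates. The soft and intermediate values are within counting error of each other, and the stiff value is higher. The stiff to soft log2 ratio was 0.12 (counting interval 0.09 to 0.15), an increase of 8.82%; with upper quartile scaling the log2 ratio was 0.06. In GENCODE 44.2% of the exon bases of Hspa5 overlap Rabepk on the opposite strand. The libraries were made with a stranded kit, but the strand setting of the counting was not given in the sources used here, so the reads of the pair cannot be told apart with certainty. Rabepk had 644, 671 and 676 normalized read counts in the same order, far under Hspa5.

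Hsp90b1 encodes GRP94, the Hsp90-type chaperone of the ER, which finishes the folding of integrins and toll-like receptors among other clients. It lies on chromosome 10 at 86526073 to 86541446 (minus strand, 18 exons). Its values were 13914 on soft, 14132 on intermediate and 14934 normalized read counts on stiff plates. As for Hspa5, only the stiff library stood apart by more than counting error, with a stiff to soft log2 ratio of 0.10 and an interval from 0.07 to 0.14. With upper quartile scaling the ratio was 0.04, and 0.20 with the length and GC trend subtracted.

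Dnajb9 encodes ERdj4, a J-domain co-chaperone that directs BiP to misfolded chains and to the stress sensor IRE1. It lies on chromosome 12 at 44252341 to 44257171 (minus strand, 3 exons) and had 2173 normalized read counts on soft, 2100.3 on intermediate and 2189 on stiff plates. All 3 counting intervals of its ratios included 0. The stiff to soft log2 ratio was 0.01 (counting interval -0.08 to 0.10), -0.05 with upper quartile scaling and 0.16 with the length and GC trend subtracted. Xbp1 encodes the transcription factor that IRE1 activates by splicing its mRNA, an event that gene-level counts do not show. It lies on chromosome 11 at 5470606 to 5483027 (plus strand, 4 exons), and its values were 4088, 4169 and 4322 normalized read counts on soft, intermediate and stiff plates. The stiff to soft log2 ratio was 0.08 (counting interval 0.02 to 0.14), and 0.02 with upper quartile scaling. Of the exon bases of Xbp1, 22.0% overlap Ccdc117 on the opposite strand, which had 617, 602 and 538 normalized read counts.

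The protein disulfide isomerases form and rearrange the disulfide bonds of secreted proteins. Pdia3 (ERp57), which works with calreticulin on glycoproteins, lies on chromosome 2 at 121244149 to 121270339 (plus strand, 13 exons). It had 26380 normalized read counts on soft, 26260 on intermediate and 25091 on stiff plates, and its stiff to soft log2 ratio was -0.07 with an interval from -0.10 to -0.05. That ratio was -0.13 with upper quartile scaling and -0.01 with the length and GC trend subtracted. Pdia4 (ERp72) lies on chromosome 6 at 47770077 to 47790462 (minus strand, 10 exons) and had 7134, 7557 and 8222 normalized read counts. It was the only member whose intervals lay above 0 in all 3 comparisons, with a log2 ratio of 0.08 for intermediate to soft, 0.12 for stiff to intermediate and 0.20 for stiff to soft. The first of these was 0.05 with upper quartile scaling. Pdia6 (P5, or ERp5) lies on chromosome 12 at 17316533 to 17335913 (plus strand, 13 exons) and had 11683, 11642 and 11650 normalized read counts. Its highest and lowest values differed by a factor of 1.003 on this scale. The isomerases thus did not move as a block: Pdia4 per Pdia3 read, a ratio taken within each library and unaffected by scaling, was 0.270 (interval 0.263 to 0.278) on soft, 0.288 (0.281 to 0.295) on intermediate and 0.328 (0.320 to 0.336) on stiff plates.

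Calr encodes calreticulin, the lectin chaperone of the lumen that retains glycoproteins until they are folded and buffers calcium. It lies on chromosome 8 at 85567946 to 85573667 (minus strand, 9 exons). Its values were 46773 on soft, 48041 on intermediate and 48490 normalized read counts on stiff plates, and its stiff to soft log2 ratio was 0.05 with an interval from 0.03 to 0.07. The sign of this ratio is not firm, since it was -0.003 with libraries scaled to total reads and -0.01 with upper quartile scaling. The pseudogene Calr-ps had 3, 4 and 1 reads. Canx, the membrane-bound partner of calreticulin, was named after its values were seen. It had 15605, 16426 and 18675 normalized read counts, and Canx reads per Calr read were 0.334 (0.328 to 0.340) on soft, 0.342 (0.336 to 0.348) on intermediate and 0.385 (0.379 to 0.392) on stiff plates.

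Sdf2l1 was the exception among the 10. It encodes an ER-resident protein that works with BiP and its J-domain partners to keep misfolded chains from aggregating, and it lies on chromosome 16 at 16948002 to 16950252 (minus strand, 3 exons). It had 771 normalized read counts in the soft (752 reads), 751 in the intermediate (797 reads) and 1083 in the stiff library (1056 reads). The soft and intermediate libraries were alike within counting error and the stiff library was higher. The log2 ratio was 0.49 for stiff to soft (interval 0.35 to 0.63), 0.53 for stiff to intermediate (0.39 to 0.66) and -0.04 for intermediate to soft (-0.18 to 0.11). Of the 11873 genes tested, 83.9% had a smaller stiff to soft ratio in size and 92.1% a smaller stiff to intermediate ratio. Sdf2l1 also differed relative to Hspa5. There were 4.26 Sdf2l1 reads per 100 Hspa5 reads in the soft (3.96 to 4.59), 4.12 in the intermediate (3.83 to 4.42) and 5.50 in the stiff library (5.17 to 5.86). Its paralog Sdf2, named after its values were seen, went the other way, with 3137, 2766 and 2573 normalized read counts and a stiff to soft log2 ratio of -0.29 (-0.36 to -0.21). With 1 culture per level and the summed macrophage markers also highest in the stiff library (11 of 12 genes, with Fcgr1 highest on intermediate plates), the part of other cells in the Sdf2l1 value was not tested, and fewer cells of a type cannot be told apart from less RNA per cell.

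Serpinh1 encodes HSP47, which binds the procollagen triple helix in the ER and escorts it toward the Golgi. It lies on chromosome 7 at 98994220 to 99005076 (minus strand, 5 exons) and had 48712 normalized read counts on soft, 49112 on intermediate and 51385 on stiff plates. The stiff to soft log2 ratio was 0.08 (counting interval 0.06 to 0.10), and with the trend of ratios over transcript length and GC content subtracted it was -0.02. Its clients differed far more. All 11 collagen chains examined were higher in the stiff than in the soft library, 7 of them by at least 0.5 and 2 by at least 1 on the log2 scale, with a median of 0.77 against 0.005 over all genes tested. Of all genes tested, 51.1% were above 0, 11.8% were higher by at least 0.5 and 3.6% reached 1 in size. With the length and GC trend subtracted 2 of the 11 chains were higher by at least 0.5, against 8.34% of genes: Col5a1 at 0.71 and Col1a1 at 0.52. Markers of other cells differed in both directions between stiff and soft. The macrophage markers had a median of 1.25. Of the cartilage and bone markers Col2a1 was at 1.46 (204, 350 and 562 reads), Alpl at 0.76 and Sox9 at 0.05, and Acan had 22, 53 and 64 reads. The muscle gene Acta1 was at 1.88 (164, 315 and 607 reads). Of the mural markers Cspg4 was at 0.53, Des at 0.36, Notch3 at -0.05 and Rgs5 at -0.08. Lower were the Schwann marker S100b at -0.60, Mcpt8 at -0.61, S100a8 at -0.09 and Sdc1 at -0.41. The part of other cells in the collagen values was not tested. Col1a1 had 78648, 110715 and 151834 normalized read counts, a stiff to soft log2 ratio of 0.95 (0.94 to 0.96), Col5a1 had a ratio of 1.303, Col4a2 of 1.08 and Col12a1 of 0.82, while Col1a2 reached 0.28. Within each library, the 11 chains together gave 6.005 reads per Serpinh1 read on soft (5.95 to 6.06), 7.48 on intermediate (7.41 to 7.55) and 8.65 on stiff plates (8.57 to 8.73). The collagen reads per Serpinh1 read therefore went up at each step of stiffness, a change that does not depend on how the libraries are scaled.

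**Figure D3:**
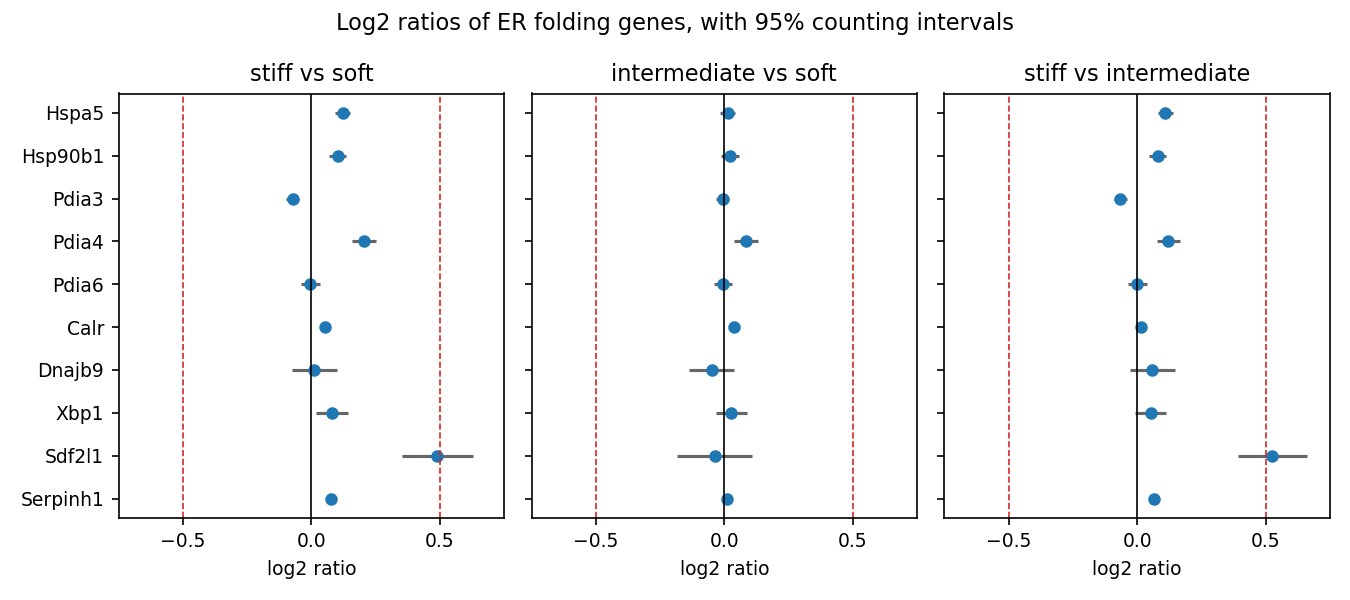
Log2 ratios of the 10 ER folding genes in the 3 comparisons of libraries, with exact 95% counting intervals as bars and dashed lines at 0.5 in size. Only Sdf2l1 reaches a dashed line, in stiff against intermediate, and between intermediate and soft all 10 lie within 0.1 of 0.

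Counted together, the members seldom reached the size that marked a difference elsewhere in these libraries. A gene was called when its log2 ratio (deposited values, pseudocount of 1) was at least 1 in size and its mean over the libraries reached 50 normalized read counts, a level that all 10 members passed. Between stiff and soft 0 of 10 members were called, against 3.6% of the 11873 genes tested. At a ratio of at least 0.5 in size it was 0 of 10 against 15.6%, with Sdf2l1 just short of that size. Between intermediate and soft 0 of 10 members reached either size, against 0.168% of genes at 1 and 4.6% at 0.5. Between stiff and intermediate 0 of 10 reached 1, against 1.25%, and Sdf2l1 alone reached 0.5, against 8.84%. With total reads scaling Sdf2l1 was at 0.49 there, and for stiff to soft it was at 0.57 once the trend over length and GC content was subtracted. With so few members, counts near 0 are close to what these shares would give for 10 genes, and they set the members apart from no other genes.

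The small ratios were counted as well. Between stiff and soft 6 of 10 members lay within 0.1 of 0, against 28.7% of all genes tested and 34.2% of the 5022 genes whose mean reached 1000. Between intermediate and soft all 10 lay within 0.1, against 49.6% and 63.5%, and between stiff and intermediate 7 did, against 37% and 44.8%. These bounds were chosen after the values had been seen. With the length and GC trend subtracted, Dnajb9 (0.156) and Xbp1 (0.103) left the band of 0.1 for stiff to soft. Hsp90b1 (0.148) and Dnajb9 (0.141) left it for stiff to intermediate, and no member entered it. The median log2 ratio of the members was 0.08 for stiff to soft, 0.01 for intermediate to soft and 0.06 for stiff to intermediate, beside medians over all genes of 0.005, 0.01 and 0.006. In the stiff against soft comparison 8 of 10 members were above 0, beside 51.1% of genes. With libraries scaled to total reads or by the upper quartile, Calr and Dnajb9 changed sign and 6 of 10 were above 0, beside 43.1% and 42.8% of all genes tested. The 3 comparisons share libraries and are not independent of each other.

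The genes around the members in the pathway were taken from 9 lists for the ER and the unfolded protein response, 142 genes in all, of which 140 averaged 50 or more. Between stiff and soft 12 of the 140 were higher by at least 0.5 and 0 were lower by that much, beside 11.8% of all genes higher and 3.77% lower, and none reached 1 in either direction. The median over the 140 was 0.01. With total reads or upper quartile scaling 9 were higher and 2 lower by at least 0.5, beside 10.4% of genes higher under both and 5.04% and 5.08% lower. With the length and GC trend subtracted 8 of 139 were higher and 0 lower, beside 8.34% and 3.74%.

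Of all genes tested, 15.6% reached 0.5 in size between stiff and soft, the share to set beside each count of this paragraph. Other chaperones and co-factors of BiP gave 17 genes with a median of 0.06, of which 0 reached 0.5. The 2 at the ends of this list, named after their values were seen, were Hyou1 and Cnpy2. Hyou1 encodes GRP170, a nucleotide exchange factor of BiP, and had 4681, 5528 and 6385 normalized read counts, a stiff to soft ratio of 0.45 (0.39 to 0.50). Hyou1 reads per Hspa5 read were 0.259 (0.251 to 0.267), 0.303 (0.294 to 0.312) and 0.325 (0.315 to 0.334) in the soft, intermediate and stiff library. Cnpy2 had a ratio of -0.46 (-0.54 to -0.38). Other disulfide isomerases and ER oxidation enzymes, 18 genes, had a median of -0.05 and none reached 0.5. Among them P4hb, the isomerase that is also the beta subunit of collagen prolyl 4-hydroxylase, had 58276, 57778 and 54374 normalized read counts. The 8 prolyl isomerases of the ER had a median of -0.11, and again 0 reached 0.5. With total reads scaling Fkbp7 of this list was at -0.52 and Cnpy2 at -0.51, the 2 genes of the 140 then lower by at least 0.5.

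Of all genes tested, 11.8% were higher by at least 0.5. In glycoprotein quality control 1 of 11 genes was higher by at least 0.5, Os9 at 0.53 (0.46 to 0.61), a lectin that passes misfolded glycoproteins on for degradation. In ER-associated degradation 2 of 19 were higher by that size: Syvn1, the ubiquitin ligase HRD1, with 971, 1143 and 1453 normalized read counts and a ratio of 0.58 (0.46 to 0.70), and Dnajb12, a membrane co-chaperone, at 0.54 (0.43 to 0.66). The medians of the 2 lists were 0.11 and 0.02. With total reads scaling Os9 was at 0.48 and Dnajb12 at 0.49, so that 0 of 11 and 1 of 19 reached 0.5, and with the length and GC trend subtracted no gene of either list did, with Syvn1 at 0.38. Protein entry into the ER and N-glycosylation gave 27 genes, with 0 past 0.5 and a median of -0.08. In ER exit and retrieval 2 of 19 were higher by at least 0.5, Sec24b at 0.69 and Sec24a at 0.63 (beside the same 11.8%), which are cargo adaptors of the COPII coat, and the median was 0.03. The KDEL receptors, which return escaped ER chaperones from the Golgi, had stiff to soft ratios of -0.15 for Kdelr1, 0.04 for Kdelr2 and -0.12 for Kdelr3.

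Sensors and transcription factors of the response gave 11 genes with a stiff to soft median of 0.13, of which 3 were higher by at least 0.5 and 0 lower, beside 11.8% and 3.77% of all genes tested. Atf4 had 1615, 1896 and 2601 normalized read counts and a ratio of 0.69 (0.60 to 0.78). Creb3l1, a membrane-bound factor of the ATF6 type (OASIS) known for driving Col1a1 in bone, had 1392, 1983 and 2104 normalized read counts and a ratio of 0.60 (0.50 to 0.70). Its value on intermediate plates was already 0.51 above soft, and it was the only 1 of the 140 genes to reach 0.5 there, beside 3.94% of all genes tested. It was at 0.49 with total reads scaling and 0.47 with upper quartile scaling, where 0 of the 140 reached that size. Ddit3, which encodes CHOP, had 107, 126 and 163 normalized read counts and a ratio of 0.61, with the wider interval of a low gene, 0.25 to 0.98. Of the sensors, Eif2ak3 (PERK) had a stiff to soft ratio of 0.04 (-0.12 to 0.19), Atf6 of 0.17 (0.08 to 0.27) and Ern1 (IRE1) of 0.22 (0.08 to 0.36). Ern1 was highest on intermediate plates, with 788, 1050.2 and 917 normalized read counts.

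Of 10 targets of the PERK and ATF4 branch 4 were higher by at least 0.5 between stiff and soft and 0 lower, beside 11.8% and 3.77% of all genes tested, with a median of 0.36: Trib3 at 0.84, Atf3 at 0.83, Ppp1r15a at 0.57 and Chac1 at 0.51. Chac1 was at 0.45 with total reads or upper quartile scaling, and Ppp1r15a at 0.49 once the trend over length and GC content was subtracted. The 2 members of that list below 0, named after their values were seen, were Ddit4 at -0.41 (-0.48 to -0.35) and Nupr1 at -0.25 (-0.38 to -0.11). The cytosolic and mitochondrial heat shock chaperones, the counterpart of the ER set in other compartments, had a median of 0.31 over 14 genes, with 4 higher by at least 0.5, beside 11.8% of all genes tested. These were Hspa1a at 1.19, Hspa1b at 1.11, Hspb1 at 0.76 and Cryab at 0.62; Hspa1a and Hspa1b are near-identical copies whose separate counts are uncertain. Hspa8, the constitutive cytosolic Hsp70, had 3.08 reads per Hspa5 read on soft, 2.99 on intermediate and 3.32 on stiff plates. The 12 collagen hydroxylases and their partners had a median of 0.22, with P3h2 at 0.78 from 39.0, 66.9 and 67.7 normalized read counts as the only gene past 0.5. No difference between lists was tested, nor was the part of other cells in these values.

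**Figure D4:**
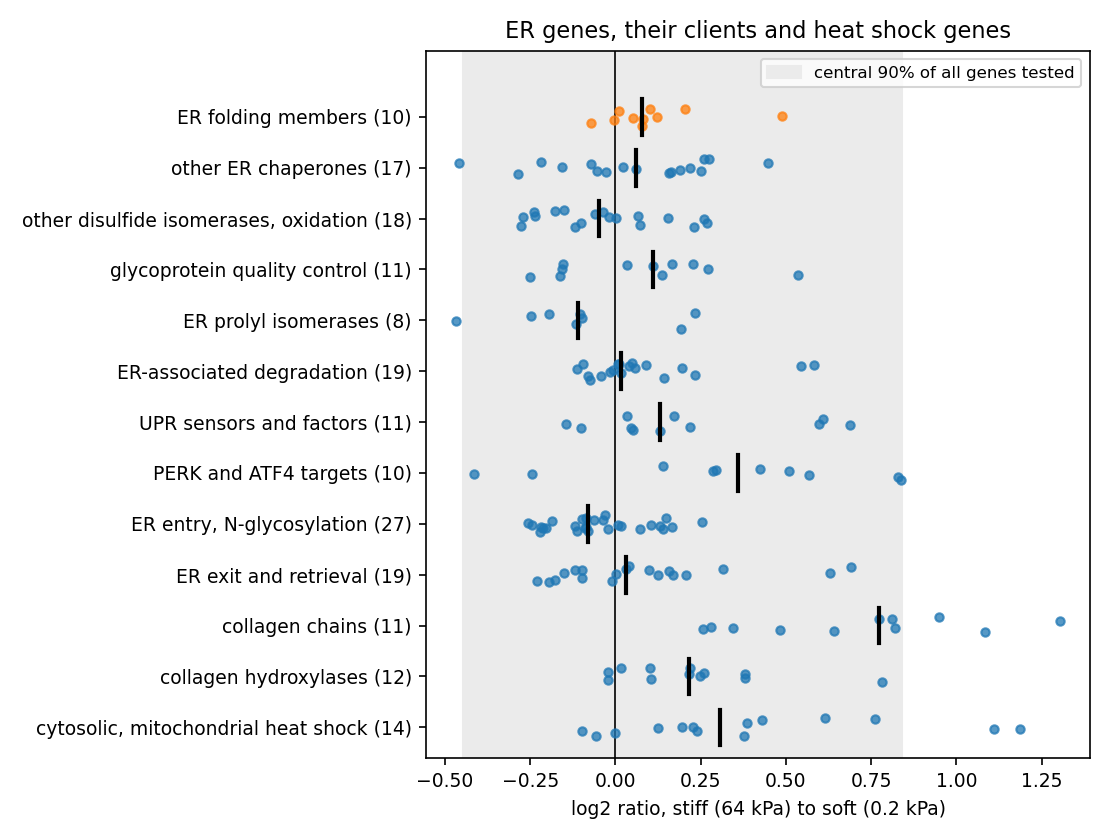
Log2 ratio of stiff to soft for the genes of each list that averaged 50 or more (points, number in parentheses), with the list median as a black bar and the central 90% of all genes tested in grey. The ER folding members cluster near 0 with Sdf2l1 apart at 0.49, while collagen chains have a median of 0.77.

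The ERSE gave a second way to collect genes, by promoter letters and not by name. The motif itself is a textbook one for this response. Among 9326 genes that had a promoter window and a mean of 50 or more, 14 held the element (0.150%), the 4 members and 10 others. Of the 10 others 5 were in the ER lists: Canx, Creld2, Dnajc3, Ero1b and Syvn1. Their stiff to soft ratios were 0.26, -0.03, -0.05, 0.23 and 0.58. Over the 10 others the median was 0.05, and 2 were higher by at least 0.5, Syvn1 and Spats2l at 0.62, the latter from 67.7, 87.7 and 105 normalized read counts, beside 11.8% of all genes tested. The lowest of the 10 was Pan2 at -0.39. The 4 members with an ERSE had ratios of 0.12 (Hspa5), 0.10 (Hsp90b1), 0.05 (Calr) and -0.004 (Pdia6). The 6 without an exact match in the window spanned -0.07 (Pdia3) to 0.49 (Sdf2l1). Genes were also ranked by how near their pair of ratios (intermediate to soft, stiff to soft) lay to that of Hspa5. The nearest of 10613 genes averaging 100 or more were Fbxo42, Napg, Zfp287, Elf1 and Fhip2b, at distances of 0.004 to 0.006, but 376 genes lay within 0.05, and with 3 libraries such likeness singles out no gene.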

How the data were processed

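The deposited signal values are gene counts that the authors divided by 1 size factor per library; that DESeq2 made them comes from the deposited files' names. STAR 2.7.9a, Subread 2.0.1 with featureCounts, DESeq2 1.34.0 and build GRCm39 are listed, per the submitters' processing notes. The 3 deposited files held the same table, and each column carries 1 sample's title. Dividing a column by its smallest positive value gave whole numbers for 100% of its genes (tolerance 0.01), so whole reads were recovered; 1 read is worth 0.943 to 1.03 normalized counts. A count test needs replicates and was not made. Ratios use a pseudocount of 1 and so understate changes of low genes. Intervals are 95% Clopper-Pearson (exact), for how the reads of a gene divide between 2 libraries. Symbols were matched to GENCODE vM39 (11655 of 11873 tested genes) for position and length.

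Members and lists were chosen with earlier results of these data known. Named genes were the members, up to 4 genes per list past 0.5, sensors, Atf4, Ddit3, KDEL receptors, Col1a1, Col1a2 and the 5 genes nearest to Hspa5; others were picked after their values were seen. Alternatives were pseudocounts of 0.1 and 10, 3 scalings (one from edgeR 4.0.16), other minimum means, and subtraction of the median ratio of the 300 genes nearest in length and GC content. The calling step was tested on simulated data. Software was R 4.3.3, minimap2 2.31, Python 3.11.15 and, within it, scipy 1.17.1, pandas 2.3.3, numpy 2.4.6 and matplotlib 3.10.9.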

Additional observations from a re-analysis of the deposited data

How the results depend on the processing

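No paired analysis was possible because each stiffness level had 1 library, and for the same reason no library could be left out. Under the 9 alternatives no member reached a log2 ratio of 1 in size in any comparison, and the largest size was 0.57. At 0.5, the length and GC trend subtracted gave 1 member (Sdf2l1) for stiff against soft in place of 0, and scaling to total reads gave 0 in place of 1 for stiff against intermediate, with Sdf2l1 at 0.49. The members' median for stiff against soft, 0.08, was 0.023 with total reads scaling, 0.021 with upper quartile scaling and 0.13 with the trend subtracted. For intermediate against soft it was -0.024 with upper quartile scaling, and for stiff against intermediate 0.026 with total reads scaling. Scaling shifts every gene alike, by -0.06 at most in the median of all genes. Of 30 member ratios 13 changed sign under at least 1 alternative and 12 stayed inside their counting interval under every one; Hspa5, Hsp90b1, Pdia3, Pdia4, Xbp1 and Sdf2l1 kept the sign of the stiff to soft ratio under the 6 that can change a ratio; the other 3 change only which genes are tested. Of 78 list counts at 0.5, 18 moved over 1.5 times under at least 1 alternative. Few reads leave wide intervals for low genes such as P3h2 (38, 71 and 66 reads; stiff to soft 0.20 to 1.41) and Chac1 (0.15 to 0.88).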
